A study of Mus musculus with 10 samples.

Results

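Open chromatin was compared between bone marrow cells of double mutant (DM) mice, which carry both a mutant Npm1 and a mutant Flt3 allele, and of wild-type (WT) mice. ATAC-seq reads it from the cuts that the transposase Tn5 makes in accessible DNA, and a peak marks a stretch with many cuts. The comparison used 4 of the 10 samples of the series, 2 DM and 2 WT libraries, chosen by their titles and each with its own peak list. Peaks of these 4 lists on chromosomes 1 to 19 and X that shared at least 1 bp were merged into 98028 regions. A region with a peak in both DM libraries and in neither WT library was counted as gained, which held for 7179 regions, and the reverse as lost, which held for 22384. DM mice had the genotype Npm1flox-cA/+;Flt3ITD/+;Mx1-Cre+ and WT mice are labelled Wild-type, with no Cre named, so every difference below is one of both alleles together with Mx1-Cre. Libraries of the single mutants Npm1c (Npm1flox-cA/+;Mx1-Cre+) and Flt3-ITD (Flt3ITD/+), 2 each, were used beside them where stated. All mice were C57BL/6, and all 8 of these libraries hold lineage-negative cells, flushed from femurs and tibias, freed of red cells and depleted of mature lineages with a kit, of which 100000 were tagmented for 30 min. This fraction, called hematopoietic stem and progenitor cells (HSPCs) in the labels, is a mixture of early cells of many lineages and was not sorted further. Cre in Mx1-Cre mice is driven by an interferon-inducible promoter that is not limited to blood cells, and the labels used here give no age, no inducing treatment and no check of recombination. The replicates are called biological without naming the animals, so p-values measure only the spread between these libraries.

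Npm1 encodes nucleophosmin, a nucleolar chaperone whose leukemic frameshift mutation sends the protein to the cytoplasm, and leukemias with it express HOXA genes and MEIS1 at high levels. Flt3 encodes a receptor tyrosine kinase of early progenitors and dendritic cell precursors, and its internal tandem duplication makes signalling through STAT5 and RAS constitutive. In normal marrow the factor GATA1 with its partners KLF1 and ZFPM1 opens erythroid and megakaryocytic genes, whereas PU.1, C/EBP factors and IRF8 open those of granulocytes, monocytes and dendritic cells.

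Among 32619 promoter windows of 300 bases, from 250 before to 50 after a RefSeq start site, 183 (0.561%) had a peak in both DM and neither WT library and 937 (2.87%) the reverse. The 8 promoters printed here are shown because they are examples of these classes at genes of the results, 4 gained ones followed by 4 lost ones. F13a1, Hoxa10, Kel and Tek belong to genes named by a rule, and Fcgr4, Ctss, Epb42 and Gata1 were picked after their values had been seen. Sequences run 5′ to 3′ on the gene's strand and come from RefSeq, build GRCm38.p6, the assembly of mm10. Capitals mark matches to short motifs searched on both strands, and a match is a description of the letters, not a bound site. Letters of GATA factors, of PU.1 and other ETS factors, and of IRF, HSF, C/EBP, AP-1, MEIS and CTCF were found in them, the GATA letters being AGATAA. 
F13a1, chr13:37049164-37049463, minus strand: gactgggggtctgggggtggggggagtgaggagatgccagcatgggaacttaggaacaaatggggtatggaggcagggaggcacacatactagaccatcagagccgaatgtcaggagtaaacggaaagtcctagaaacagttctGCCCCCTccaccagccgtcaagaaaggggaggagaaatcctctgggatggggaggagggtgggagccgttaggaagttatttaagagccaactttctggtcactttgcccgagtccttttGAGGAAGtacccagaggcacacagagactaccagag
Fcgr4, chr1:171018676-171018975, plus strand: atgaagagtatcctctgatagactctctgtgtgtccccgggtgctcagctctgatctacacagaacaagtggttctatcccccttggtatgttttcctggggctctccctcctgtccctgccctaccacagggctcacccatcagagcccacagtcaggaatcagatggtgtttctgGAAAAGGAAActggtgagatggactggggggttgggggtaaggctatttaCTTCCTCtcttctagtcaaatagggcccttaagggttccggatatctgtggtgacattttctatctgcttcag
Ctss, chr3:95526536-95526835, plus strand: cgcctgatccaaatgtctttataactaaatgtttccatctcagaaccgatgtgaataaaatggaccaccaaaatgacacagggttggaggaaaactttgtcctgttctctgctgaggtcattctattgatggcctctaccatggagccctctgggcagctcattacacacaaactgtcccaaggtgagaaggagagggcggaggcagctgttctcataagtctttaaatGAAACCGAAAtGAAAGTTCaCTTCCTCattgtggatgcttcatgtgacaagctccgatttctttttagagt
Hoxa10, chr6:52234890-52235189, minus strand: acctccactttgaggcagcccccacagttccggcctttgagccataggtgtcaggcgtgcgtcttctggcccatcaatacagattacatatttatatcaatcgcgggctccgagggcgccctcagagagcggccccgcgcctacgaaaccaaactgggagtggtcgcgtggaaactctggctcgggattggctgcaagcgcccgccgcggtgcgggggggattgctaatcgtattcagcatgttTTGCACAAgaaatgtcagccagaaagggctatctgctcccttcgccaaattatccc
Kel, chr6:41704276-41704575, minus strand: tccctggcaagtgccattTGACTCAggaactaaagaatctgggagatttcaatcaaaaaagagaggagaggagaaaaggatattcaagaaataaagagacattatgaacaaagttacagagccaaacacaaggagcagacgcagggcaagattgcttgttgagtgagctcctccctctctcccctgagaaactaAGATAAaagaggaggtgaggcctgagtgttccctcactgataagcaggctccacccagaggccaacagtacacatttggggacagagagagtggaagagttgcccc
Epb42, chr2:121036828-121037127, minus strand: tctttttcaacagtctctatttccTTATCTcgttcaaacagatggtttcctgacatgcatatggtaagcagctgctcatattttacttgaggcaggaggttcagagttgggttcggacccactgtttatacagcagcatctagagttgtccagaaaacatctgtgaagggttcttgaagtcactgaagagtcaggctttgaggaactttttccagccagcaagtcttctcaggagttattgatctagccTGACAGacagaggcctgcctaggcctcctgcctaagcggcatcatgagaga
Tek, chr4:94739039-94739338, plus strand: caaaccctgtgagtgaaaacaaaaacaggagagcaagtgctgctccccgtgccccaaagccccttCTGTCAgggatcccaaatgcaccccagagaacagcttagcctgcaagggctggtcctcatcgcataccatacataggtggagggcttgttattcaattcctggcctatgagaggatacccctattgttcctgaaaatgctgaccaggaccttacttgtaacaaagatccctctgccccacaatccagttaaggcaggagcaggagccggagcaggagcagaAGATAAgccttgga
Gata1, chrX:7967861-7968160, minus strand: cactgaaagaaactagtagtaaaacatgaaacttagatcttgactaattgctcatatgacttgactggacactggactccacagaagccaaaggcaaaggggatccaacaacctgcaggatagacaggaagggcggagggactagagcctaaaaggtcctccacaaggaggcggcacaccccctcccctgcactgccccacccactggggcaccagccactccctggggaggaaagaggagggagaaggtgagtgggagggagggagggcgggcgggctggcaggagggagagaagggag

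The gained windows of F13a1 (a transglutaminase of monocytes), Fcgr4 (an IgG Fc receptor of monocytes) and Ctss (cathepsin S, a protease of antigen processing) each held 1 match to GAGGAAG, the letters searched for PU.1 and other ETS factors. Those of Fcgr4 and Ctss also held an IRF match. No other gained window of the gene lists used below held GAGGAAG, so the printed windows are not typical of the gained ones in this. The window of Hoxa10, a homeobox factor of the HOXA cluster, held a C/EBP match and had a peak in both DM and both Npm1c libraries but in neither Flt3-ITD nor WT library. That of Fcgr4 had a peak in the DM libraries alone among the 8, that of F13a1 also in Flt3-ITD replicate 1 and that of Ctss also in Flt3-ITD replicate 2. The lost windows of Kel (a blood group protease of red cells), Epb42 (a protein of the red cell membrane skeleton) and Tek (the angiopoietin receptor of stem and endothelial cells) each held 1 AGATAA match. The Gata1 window held none of the 10 motifs searched, which says only that these letters are not in it. Kel, Epb42 and Gata1 windows had a peak in all 6 libraries other than DM, and the Tek window in both Npm1c and both WT libraries but in neither DM nor Flt3-ITD library.

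Peak lists were shorter in DM than in WT. DM libraries held 55597 and 63110 peaks covering 30.0 and 33.9 Mb, and WT libraries 80878 and 63879 peaks covering 50.2 and 39.8 Mb. WT replicate 1 stands apart with the longest list, whereas DM replicate 2 and WT replicate 2 had nearly equal numbers of peaks. Median peak widths were 401 and 402 bp in DM and 421 and 419 bp in WT. The lists hold positions only, with no read numbers given. Shallower sequencing and less open chromatin both shorten a list and cannot be told apart. Of 52 marker genes, the 8 of stem cells were covered by peaks over 9855 and 11955 bases in DM and 30581 and 23142 bases in WT in sum, and 7 of them had a peak in all 4 libraries. Erythroid markers (6 genes) summed to 6620 and 5706 bases in DM and 26065 and 24125 in WT, and dendritic markers (5 genes) to 17264 and 22027 in DM and 7681 and 4803 in WT. Monocyte markers (6 genes) summed to 8197 and 11950 bases in DM and 9768 and 3628 in WT, which overlap. Neutrophil markers (6 genes) summed to 14172 and 9509 in DM and 9437 and 5020 in WT. The mature neutrophil gene Ly6g, the natural killer gene Ncr1 and the platelet gene Gp6 had no peak in any of the 4 libraries. In such bulk samples fewer cells of a type and less open chromatin per cell cannot be told apart, and the part of a changed cell mixture in the results below was not tested.

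DM cells gained 7179 regions, 7.32% of all 98028, and lost 22384 regions, 22.8%. Another 32654 regions (33.3%) had a peak in all 4 libraries. With 2 libraries against 2 no exact two-sided p under 0.33 can be had for a region, so these counts carry no test. The unequal lists bear on both counts, since 9108 regions had a peak in both DM libraries and in WT replicate 1 alone among WT, and 47 in both DM libraries and WT replicate 2 alone. Without WT replicate 1 the gained count was 16438, and without DM replicate 1, the shorter DM list, it was 14629. With each list shortened to its 55597 widest peaks, 12487 of 82622 regions (15.1%) were gained and 14985 (18.1%) lost. Of the gained regions of the full lists 6389 (89.0%) overlapped a gained region of the shortened lists, and these made 51.2% of the gained ones there. Of the lost regions 14190 (63.4%) overlapped a lost region of the shortened lists, 94.7% of those there. With lists shortened to equal covered length, widest peaks first, 20659 regions were gained and 3827 lost. The number of losses above gains in the full lists thus depended on list length. The list of DM replicate 1, the shortest, was not cut, and cutting WT lists can only remove WT peaks. Gained regions could thus drop out only through DM replicate 2, so their overlap of 89.0% was largely set by the cut. The 94.7% for lost regions follows largely in the same way, and neither share is a check on list length.

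Gained and lost regions were narrower than shared ones and lay mostly far from promoters. Median widths were 359 bp for gained and 409 bp for lost regions, against 801 bp for regions shared by all 4 libraries and 427 bp for all. A region is the union of its peaks, so regions merged from more lists are wider in part by construction. Of gained regions 4.39% lay within 1 kb of a start site, as did 5.27% of lost and 31.8% of shared regions, with 14.5% of all regions as the background. Read the other way, 2.22% of regions within 1 kb of a start site were gained and 8.29% lost, against 9.15% gained and 25.2% lost beyond 50 kb. Gained regions lay less within genes (52.0%) than lost (62.0%) and all regions (59.7%), and 8.72% of them had no gene within 100 kb, against 4.20% of lost and 4.83% of all regions. By chromosome the gained share ran between 5.04% on X and 9.64% on 19, and the lost share between 18.5% on 19 and 27.3% on X.

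Most gained regions had no peak in either single mutant, while most lost regions were still called in Npm1c. Of the 7179 gained regions, Npm1c libraries had a peak in 3.96% and 6.73% and Flt3-ITD libraries in 12.8% and 14.8%, where 58.2%, 62.7%, 40.9% and 48.8% of all regions were called in the same libraries. No single-mutant library had a peak in 5308 gained regions (73.9%), both Flt3-ITD but neither Npm1c library in 585 (8.15%), and both Npm1c but neither Flt3-ITD library in 164 (2.28%). Over all regions these shares were 26.8%, 4.42% and 16.5%. Lost regions were called in 73.9% and 78.5% of cases in Npm1c and in 15.6% and 35.7% in Flt3-ITD libraries. Both Npm1c and neither Flt3-ITD library had a peak in 9190 lost regions (41.1%), and none of the 4 single-mutant libraries in 3126 (14.0%), against 16.5% and 26.8% of all regions. Flt3-ITD lists were the shortest, with 43794 and 51702 peaks, against 62732 and 68620 in Npm1c, and these calls were not scaled for it.

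**Figure D1:**
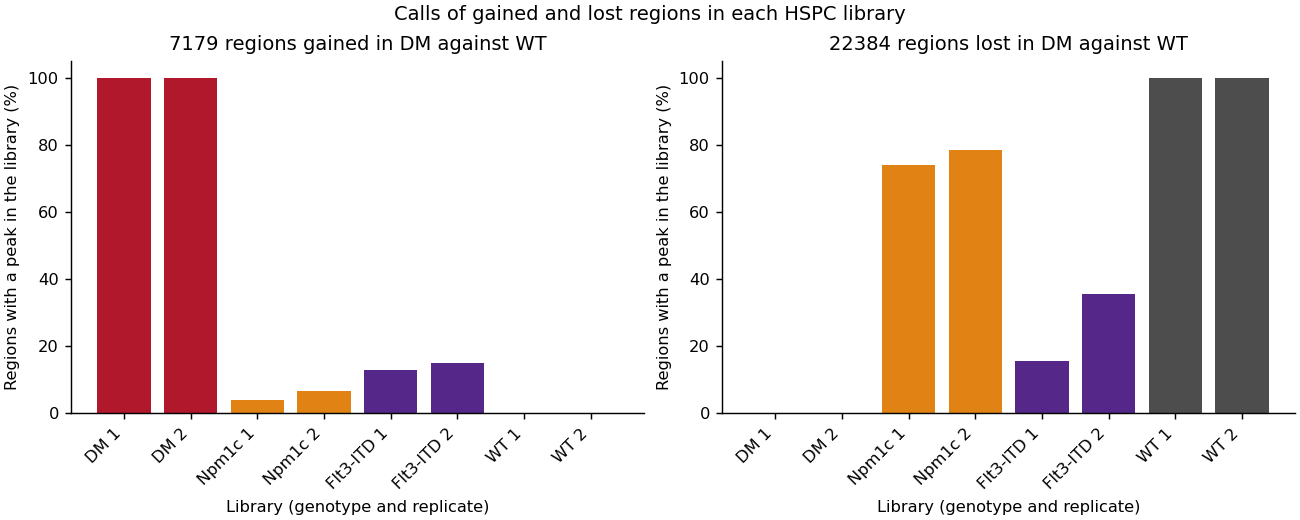
Share of gained (left) and lost (right) regions with a peak in each of the 8 HSPC libraries, in percent; bars are single libraries, and DM and WT bars are fixed at 0 or 100% by the definition of the classes. Of the lost regions 73.9% and 78.5% were called in the Npm1c libraries, and at most 14.8% of the gained ones were called in a single-mutant library.

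To test single genes, the bases covered by peaks in each gene body and 5 kb on each side were counted per library, scaled to the library's total covered bases, and compared with limma over the 8 libraries. Of 14741 loci tested, 2458 (16.7%) had more and 3539 (24.0%) fewer covered bases in DM than in WT at an adjusted p under 0.05, 565 and 935 of them by at least 2-fold. The median log2 difference over all loci was -0.04, and at loci without a peak in one group the fitted difference depends on the pseudocount of 10 covered bases per Mb. Without scaling to the total the median was -0.45 and the split became 509 higher and 7716 lower, so higher and lower mean relative to a library's total. Unscaled bases are given for the loci described most fully, and the shares of 16.7% and 24.0% are those that counts of a list's loci are read against. Both DM values lay above both WT values at 4792 loci (32.5%) and below them at 5858 (39.7%), without a test. Without WT replicate 2, the WT list closest in length to those of DM, the calls were 1357 higher and 2096 lower, and without DM replicate 2 there were 1620 higher.

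Irf8, the transcription factor that directs progenitors to monocytes and dendritic cells, had the largest increase of all loci. Its locus (8:120736358-120756694) was covered over 8529 and 15327 bases in DM, 517 and 505 in Npm1c and 2001 and 1391 in Flt3-ITD libraries, against 1538 and 862 in WT. Both DM libraries lay far above the other 6, with a log2 difference to WT of 3.36 ± 0.26 (SE, limma adjusted p = 3.99e-05, DM above WT in 2 of 2 libraries each). Of the 47 regions assigned to Irf8, 22 were gained and 1 lost, and 12 gained ones of 15 regions stood within 20 kb, between the gene body and just past its end. The promoter region of Irf8 was called in all 8 libraries, and the region 8:120750073-120753019 in the gene body, present in all 4, covered 1935 and 2947 bases in DM and 396 and 275 in WT. In the shortened lists of equal number Irf8 gained 23 of 41 regions.

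**Figure D2:**
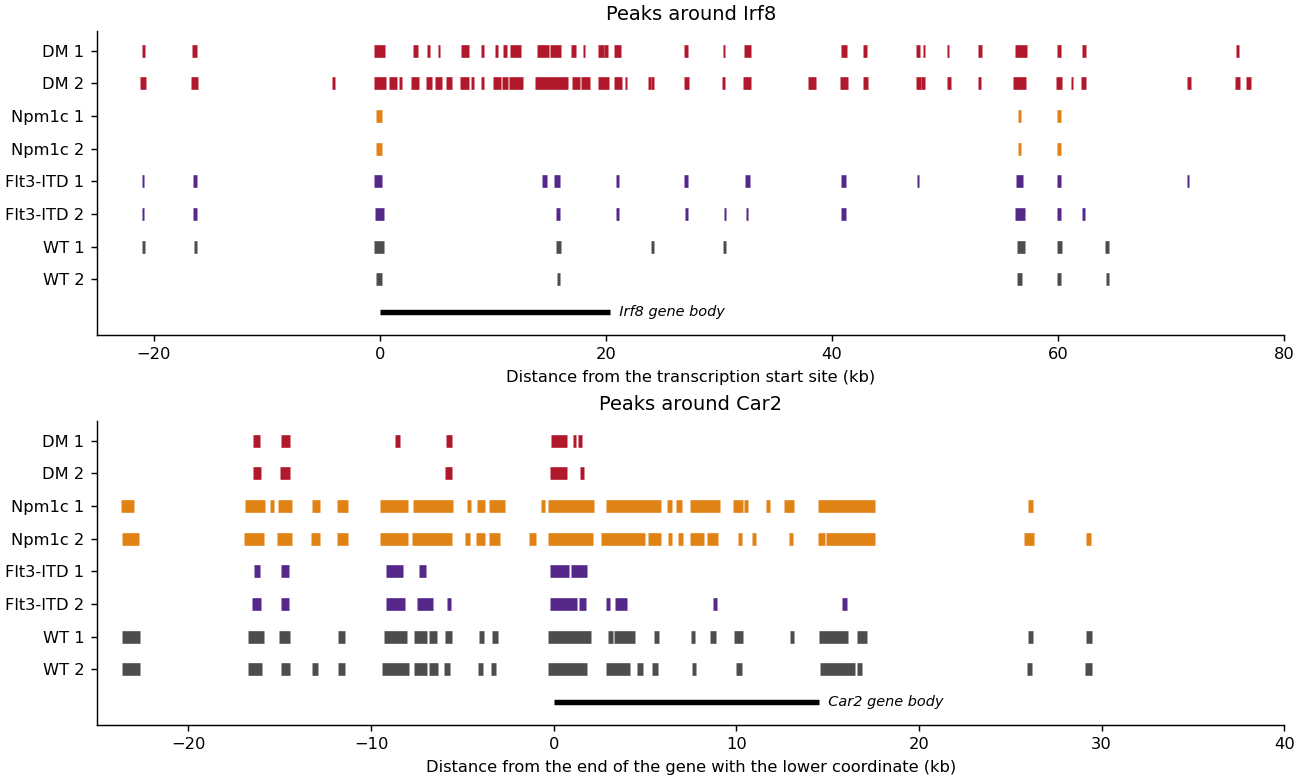
Peaks around Irf8 (top, distance from the start site in kb) and Car2 (bottom, distance from the gene end with the lower coordinate in kb), 1 row per library with DM on top and WT at the bottom; boxes are peaks and the black bar is the gene body. DM rows are densely filled over Irf8 and nearly empty over the Car2 body. Of all regions assigned to these genes within 100 kb, 22 of 47 were gained at Irf8 and 13 of 19 lost at Car2. In the shortened lists of equal number 23 of 41 were gained at Irf8 and 6 of 13 lost at Car2.

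Other myeloid transcription factor loci rose in part in DM, and Zeb2 fell. In a list of 20, 12 rose and 1 fell (median log2 difference 0.55, against -0.04 for all loci), and 55 of 292 regions (18.8%) were gained and 34 (11.6%) lost, where regions of all genes gave 7.02% and 23.0%. Gained regions of the list were 91 without DM replicate 1 and 98 without WT replicate 1. Without Irf8 33 regions were gained, and without scaling 4 of the 20 loci rose and 5 fell. Runx2, a runt factor of bone and of plasmacytoid dendritic cells, was covered over 11825 and 14853 bases in DM and 9997 and 6424 in WT (log2 1.17 ± 0.15, limma adjusted p = 0.000503) and gained 7 of 37 regions. Nr4a1, an orphan nuclear receptor of patrolling monocytes, had 4708 and 5338 bases in DM and 3444 and 2430 in WT (log2 1.16 ± 0.14, limma adjusted p = 0.000325). Both genes stood higher in each DM than in each WT library. Irf5, an interferon regulatory factor of macrophages, had 4149 and 4431 bases in DM and 3384 and 1895 in WT (log2 1.11, limma adjusted p = 0.00128). Irf4, one of dendritic and B cells, had 1491 and 1723 in DM and 1366 and 505 in WT (log2 1.05, limma adjusted p = 0.00308, unscaled adjusted p = 0.0846). Spi1, which encodes PU.1, had 6093 and 6944 bases in DM and 7805 and 3928 in WT, so the unscaled values overlap. Its scaled increase (log2 0.67, limma adjusted p = 0.0229) was 0.21 without scaling (adjusted p = 0.517). Cebpa and Cebpb, C/EBP factors of granulocytes and monocytes, likewise passed only when scaled, with log2 differences of 0.67 and 0.58 (limma adjusted p = 0.0150 and 0.0149) and unscaled adjusted p of 0.375 and 0.319. Zeb2, a zinc finger repressor that is also used by monocytes and dendritic cells, fell to 5523 and 5628 bases in DM, against 21285 and 17683 in WT (log2 -1.27 ± 0.11, limma adjusted p = 8.61e-05). It gained none and lost 24 of its 42 regions, and Flt3-ITD libraries were as low, with 5325 and 6950 bases, while Npm1c libraries had 21446 and 24089.

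Genes of antigen presentation and dendritic cells had the highest median difference of the 21 lists. Of 21 loci of the dendritic list 18 rose and none fell (median log2 1.03), and 12 rose and 1 fell without scaling. Of its 197 regions 38 (19.3%) were gained, at 17 of 22 genes, and 15 (7.61%) lost, and in the shortened lists 29.9% were gained, against 14.6% for all genes. Counts of gained regions were 69 without DM replicate 1 and 62 without WT replicate 1, and 24 were lost without WT replicate 2. Cd74, the invariant chain of MHC class II, was covered over 9077 and 10924 bases in DM, 2649 and 2424 in Npm1c and 2231 and 2244 in Flt3-ITD libraries, against 2148 and 1603 in WT. The DM libraries lay above all others (log2 2.64 ± 0.14, limma adjusted p = 1.09e-05). The gained region 18:60810518-60814824 runs across an end of the Cd74 gene (18:60803849-60812652), with its midpoint 19 bp outside. It was the widest of all gained regions, with 3314 and 4307 bases in DM and no peak in the other 6 libraries. Ciita, the transactivator of class II genes, had 2961 and 3931 bases in DM and 1437 and 638 in WT (log2 1.88 ± 0.22, limma adjusted p = 0.000276) and gained 5 of 13 regions. H2-Aa, a class II chain, had 2231 and 2548 bases in DM and 674 and 580 in WT (log2 1.82 ± 0.16, limma adjusted p = 6.35e-05). At these loci every DM library exceeded every other library of the 8. Ccr7, the receptor that guides dendritic cells to lymph nodes, had 1785 and 3192 bases in DM and 1109 and 570 in WT (log2 1.61 ± 0.26, limma adjusted p = 0.00133). Cadm1, an adhesion molecule of conventional dendritic cells, gained 7 of 13 regions, and the plasmacytoid lectin gene Siglech had 897 and 1690 bases in DM and 466 and 319 in WT. Tcf4, the E protein of plasmacytoid dendritic cells, did not pass (log2 -0.04, limma adjusted p = 0.842), with 7402 and 10915 bases in DM and 15290 and 10993 in WT, and lost 8 of 37 regions while gaining 3. Summed dendritic markers moved with the list, and their part in the result was not tested.

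Of 24 monocyte and macrophage loci 17 rose and none fell (median log2 0.82), 7 rising and 1 falling without scaling, and 29 of 179 regions (16.2%) were gained and 11 (6.15%) lost, against 7.02% and 23.0% over all genes. Gained counts were 58 without DM replicate 1 and 61 without WT replicate 1, and 20 regions were lost without WT replicate 2. Ly86, a partner of the toll-like receptor homolog RP105, was covered over 2019 and 3126 bases in DM, against 1301 and 0 in WT (log2 2.23 ± 0.45, limma adjusted p = 0.00433). C1qc, a complement chain made by macrophages, had 943 and 1090 bases in DM and 266 and 0 in WT (log2 1.76 ± 0.19, limma adjusted p = 0.000188). F13a1 had 811 and 1785 bases in DM and 651 and 0 in WT (log2 1.67 ± 0.41, limma adjusted p = 0.0105), with 6 of 15 regions gained. It reached the filter's mean of 10 per Mb only through its DM libraries, so this p-value is no independent support. Cybb, the oxidase subunit gp91phox, had 1583 and 3168 bases in DM and 1490 and 439 in WT (log2 1.48 ± 0.35, limma adjusted p = 0.00851). WT replicate 1 came near the lower DM library at F13a1 and Cybb, and their calls were lost without WT replicate 2 (limma adjusted p = 0.0895 and 0.0777) and without DM replicate 2 (0.0707 and 0.0599), and that of Cybb without scaling (0.0712). With a pseudocount of 1 the calls of Ly86 (0.0554), F13a1 (0.105) and Cybb (0.158) were lost too. Csf1r, the receptor that monocytes need to grow, had 3283 and 4060 bases in DM and 3877 and 2085 in WT, an overlap before scaling, and passed only when scaled (log2 0.75, limma adjusted p = 0.00638). At Fcgr4 the promoter window was gained while the locus as a whole did not pass, with 1317 and 1177 bases in DM and 2646 and 2232 in WT (log2 -0.39, limma adjusted p = 0.0683).

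Of 11 neutrophil granule and surface loci 5 rose and none fell, 2 rising and 1 falling without scaling. Itgam, the integrin chain CD11b of granulocytes and monocytes, was covered over 2329 and 4029 bases in DM and 1556 and 493 in WT (log2 1.81 ± 0.31, limma adjusted p = 0.00199). Mpo, the granule peroxidase of promyelocytes, had 9671 and 4855 bases in DM and 4373 and 2454 in WT (log2 1.44 ± 0.34, limma adjusted p = 0.00871). Its call was lost without WT replicate 2 (adjusted p = 0.0753). Both were higher in each DM than in each WT library, though the DM libraries of Mpo lay apart from each other. Ltf and Elane, granule proteins of late and early stages, passed when scaled (log2 0.96 and 0.69, limma adjusted p = 0.00251 and 0.0465) but not without scaling (adjusted p = 0.0723 and 0.472). The Elane call was lost without any single DM or WT library (adjusted p between 0.0541 and 0.244). Of the list's 88 regions 9 (10.2%) were gained and 6 (6.82%) lost, against 7.02% and 23.0% over all genes. These small counts depended on single libraries, with 19 gained without DM replicate 1, 15 without DM replicate 2 and 26 without WT replicate 1, 17 in the shortened lists, and 15 lost without WT replicate 2.

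**Figure D3:**
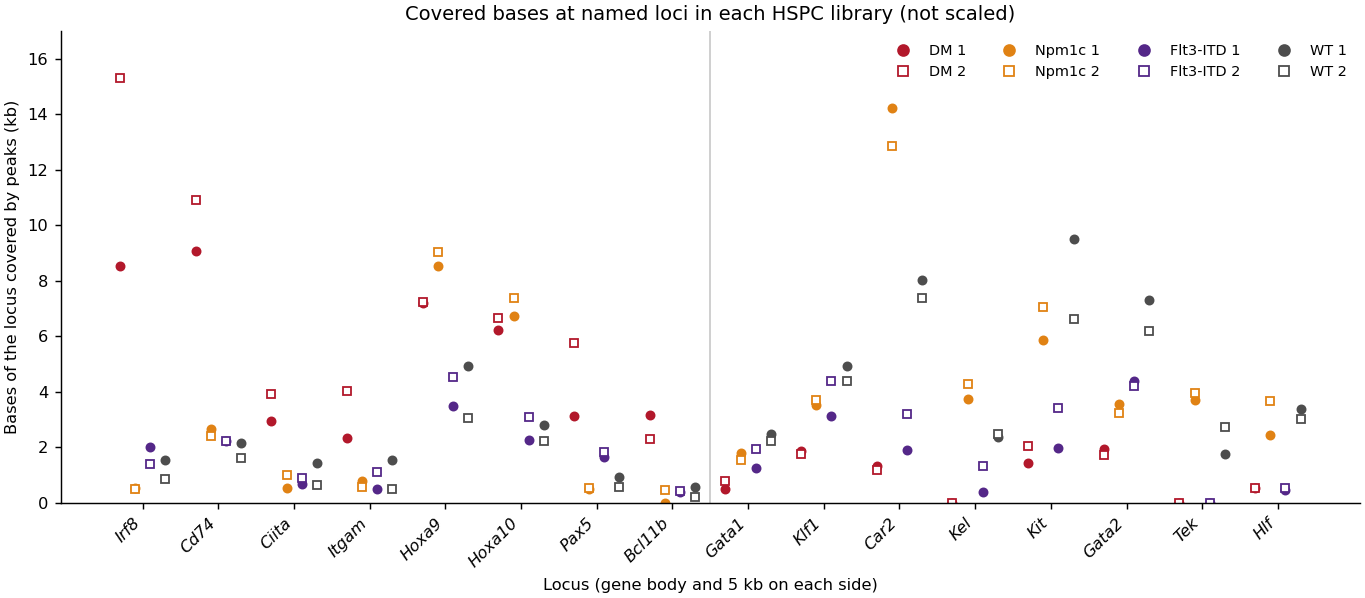
Bases covered by peaks, in kb and not scaled, at 16 loci in each of the 8 HSPC libraries, with DM left and WT right at each locus; circles are replicate 1 and squares replicate 2. The first 8 loci were higher and the last 8 lower in DM than in WT, and Npm1c libraries sat beside DM at Hoxa9 and Hoxa10 and at or above WT at Car2, Kel and Tek.

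HOXA genes, homeobox factors of progenitors, rose in DM at 9 of the 10 loci tested. Of 21 loci in the HOX and cofactor list 10 rose and 3 fell (median log2 0.46), 7 rising and 6 falling without scaling. The shares of regions gained (7.41% of 135) and lost (22.2%) were near those of all genes, and 23 were gained without DM replicate 1, 22 without WT replicate 1 and 19 in the shortened lists. Hoxa10 was covered over 6242 and 6676 bases in DM, 6723 and 7386 in Npm1c and 2282 and 3098 in Flt3-ITD libraries, against 2801 and 2239 in WT (log2 1.69 ± 0.11, limma adjusted p = 1.85e-05). Hoxa9 had 7188 and 7245 bases in DM, 8536 and 9054 in Npm1c and 3492 and 4550 in Flt3-ITD libraries, against 4929 and 3047 in WT (log2 1.29 ± 0.14, limma adjusted p = 0.000192). At both genes DM and Npm1c libraries stood together above Flt3-ITD and WT libraries, without overlap. These loci overlap within the cluster and share peaks, so the 9 Hoxa loci that rose are not independent counts. Hoxa4 did not pass (log2 0.46, limma adjusted p = 0.0517), Hoxa13 was not tested and lost 1 of 4 regions, and without scaling the calls of Hoxa3, Hoxa6 and Hoxa7 were lost (limma adjusted p = 0.0519, 0.0761 and 0.0550). Hoxb4, a HOXB gene of stem cells, did not pass, with 1447 and 1447 bases in DM and 1940 and 1258 in WT (log2 0.30, limma adjusted p = 0.0948). Nkx2-3, a homeobox factor expressed in some leukemias, had 2237 and 2681 bases in DM, none in Npm1c and 489 and 721 in Flt3-ITD libraries, against 1320 and 0 in WT (log2 2.19 ± 0.44, limma adjusted p = 0.00428, and 0.0570 with a pseudocount of 1). Meis1, the HOX cofactor of leukemia, lost 7 of 27 regions and gained none, and its locus did not pass (6517 and 6610 bases in DM, 13588 and 9760 in WT, log2 -0.31, limma adjusted p = 0.0793). Meis2, a relative of Meis1, fell (log2 -1.59 ± 0.29, limma adjusted p = 0.00249), with 200 and 0 bases in DM and 2148 and 735 in WT.

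Loci of stem cell genes fell or did not pass, with 1 exception. Of 24, 1 rose and 12 fell (median log2 -0.50), none rising and 15 falling without scaling, and 125 of 434 regions (28.8%) were lost and 29 (6.68%) gained, where regions of all genes gave 23.0% and 7.02%. Gained regions were 55 without DM replicate 1, 66 without WT replicate 1 and 46 in the shortened lists. Tek had no peak in DM or in Flt3-ITD, 3704 and 3968 covered bases in Npm1c, and 1750 and 2734 in WT (log2 -2.57 ± 0.22, limma adjusted p = 6.06e-05). Kit, the stem cell factor receptor, fell to 1432 and 2047 bases in DM, against 9526 and 6643 in WT (log2 -1.56 ± 0.17, limma adjusted p = 0.000216). Npm1c libraries had 5859 and 7044 and Flt3-ITD libraries 1978 and 3408 bases. Hlf, a bZIP factor of stem cells, had 540 and 537 bases in DM and 3390 and 3040 in WT (log2 -1.61 ± 0.15, limma adjusted p = 9.69e-05), and lost 5 of 8 regions. Lmo2, a bridging partner of TAL1 and GATA factors, had 2129 and 2917 bases in DM and 11431 and 8311 in WT (log2 -1.37 ± 0.19, limma adjusted p = 0.000686), and lost 13 of 32 regions. At each of these 4 genes both DM libraries lay below both WT libraries, and so did both Flt3-ITD libraries. Gata2, a GATA factor of stem cells and mast cells, had 1950 and 1712 bases in DM and 7310 and 6206 in WT (log2 -1.25 ± 0.16, limma adjusted p = 0.000477). Cd34, a surface sialomucin of progenitors, did not pass, with 1798 and 1696 bases in DM and 2342 and 1671 in WT (log2 0.26, limma adjusted p = 0.172). Runx1, a runt factor of blood formation, had 16901 and 18824 bases in DM and 27440 and 20867 in WT (log2 0.06, limma adjusted p = 0.682).

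Erythroid genes had the largest share of lost regions of the 21 lists. Of 28 loci 26 fell and none rose (median log2 -1.27), 27 falling without scaling, and 113 of 288 regions (39.2%) were lost and 8 (2.78%) gained, where regions of all genes gave 23.0% and 7.02%. In the shortened lists 35.1% were lost, against 18.3% for all genes, and without single libraries between 117 and 153 regions were lost. Gained ones were 17 without DM replicate 1 and 18 without WT replicate 1. Transcription factors led the list, and Gata1 was covered over 506 and 798 bases in DM, 1787 and 1561 in Npm1c and 1251 and 1926 in Flt3-ITD libraries, against 2482 and 2241 in WT (log2 -1.06 ± 0.16, limma adjusted p = 0.00101). Klf1, the erythroid Krüppel-like factor, had 1879 and 1767 bases in DM and 4944 and 4378 in WT (log2 -0.76 ± 0.13, limma adjusted p = 0.00183). Its single region was called in all 8 libraries, but the promoter window within it was lost. Zfpm1, the GATA1 cofactor FOG1, lost 15 of 34 regions and Sox6, a silencer of embryonic globin, 13 of 29. Both DM libraries lay below the other 6 at Gata1 and Klf1. Among genes of the mature red cell, Car2, a carbonic anhydrase, was covered over 1310 and 1171 bases in DM, 14228 and 12862 in Npm1c and 1906 and 3217 in Flt3-ITD libraries, against 8018 and 7366 in WT (log2 -1.90 ± 0.17, limma adjusted p = 8.89e-05). Kel had no peak in DM and 2359 and 2490 bases in WT (log2 -2.69 ± 0.28, limma adjusted p = 0.000188). Car1, another carbonic anhydrase, had 299 and 0 bases in DM and 2719 and 2463 in WT. Tspo2, a sterol-binding protein of late erythroid cells, had 264 and 0 in DM and 2204 and 2190 in WT. The order with Npm1c highest, then WT, then Flt3-ITD and DM lowest held at Car2 and Kel by their group means. Exceptions were Tfrc, the transferrin receptor of all dividing cells (log2 -0.03, limma adjusted p = 0.919), and Ldb1, the GATA1 complex partner (log2 -0.33, adjusted p = 0.126). Summed erythroid markers moved with the list, 6620 and 5706 bases in DM and 26065 and 24125 in WT, and their part in the result was not tested. Hbb-bt and Hbb-bs are near-identical globin copies whose split by alignment is uncertain.

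Megakaryocyte and mast cell loci fell in part. Of 20 megakaryocyte and platelet loci 9 fell and 1 rose (13 falling and none rising without scaling), and 50 of 182 regions (27.5%) were lost and 12 (6.59%) gained, near the 23.0% and 7.02% of all genes. Without WT replicate 1, 21 were gained. Gp5, a chain of the platelet receptor for von Willebrand factor, had 579 and 504 bases in DM and 3396 and 2952 in WT (log2 -1.58 ± 0.13, limma adjusted p = 6.16e-05). Tubb1, the platelet tubulin, had 267 and 298 in DM and 1571 and 1613 in WT (log2 -1.28 ± 0.14, limma adjusted p = 0.000262). Pf4, a platelet chemokine, had 619 and 577 bases in DM and 2428 and 1997 in WT (log2 -1.04 ± 0.13, limma adjusted p = 0.000483). Gp9, another receptor chain, fell by 0.95 on the log2 scale (limma adjusted p = 0.000403), whereas the integrin Itga2b did not pass, with 2021 and 2063 bases in DM and 2854 and 2416 in WT. In the list of mast cells and basophils 4 of 8 loci fell and 1 rose, without scaling 5 and none. Cpa3, the mast cell carboxypeptidase, had no peak in DM and 1601 and 419 bases in WT (log2 -1.55 ± 0.37, limma adjusted p = 0.00900), and its call was lost without WT replicate 1 (adjusted p = 0.0637). Ms4a2, a chain of the IgE receptor, had 0 and 250 bases in DM and 1556 and 1108 in WT (log2 -1.58 ± 0.22, limma adjusted p = 0.000680). Cd200r3, a receptor of basophils, had 4489 and 5111 in DM and 4640 and 1920 in WT (log2 1.05, limma adjusted p = 0.00472, unscaled adjusted p = 0.146). With 20 kb flanks the calls of Tubb1 and Ms4a2 were lost (limma adjusted p = 0.429 and 0.106).

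Lymphoid loci moved in both directions. Of 16 B-lymphoid loci 8 rose and 3 fell, and of 18 T and NK loci 11 rose and none fell, which became 3 and 4, and 4 and 4, without scaling. Pax5, the factor that commits cells to the B lineage, was covered over 3121 and 5769 bases in DM, 490 and 534 in Npm1c and 1656 and 1842 in Flt3-ITD libraries, against 915 and 571 in WT (log2 2.45 ± 0.19, limma adjusted p = 4.68e-05). No promoter window of Pax5 had a peak in the 4 libraries. Blnk, an adapter of B-cell receptor signalling, had 2587 and 3381 bases in DM and 2153 and 835 in WT (log2 1.34 ± 0.24, limma adjusted p = 0.00217). Rag1, the recombinase of lymphoid precursors, had no peak in DM or Flt3-ITD and 837 and 979 bases in WT (log2 -1.60 ± 0.14, limma adjusted p = 8.06e-05). Tcf3, the E2A factor of early B cells, had 1820 and 1746 bases in DM and 6767 and 5937 in WT (log2 -1.20 ± 0.14, limma adjusted p = 0.000327). Bcl11b, a zinc finger factor of T-cell commitment, had 3184 and 2295 bases in DM and 564 and 208 in WT (log2 2.40 ± 0.32, limma adjusted p = 0.000586), with 4 of 8 regions gained. Il2rb, a chain of the interleukin 2 and 15 receptors, had 2036 and 3531 bases in DM, none in Npm1c and 405 and 678 in Flt3-ITD libraries, against 683 and 265 in WT (log2 2.25 ± 0.21, limma adjusted p = 0.000108). Il2rb reached the filter's mean of 10 per Mb only through its DM libraries, so this p-value is no independent support. Cd6, a co-receptor of T cells, had 2977 and 3711 bases in DM and 1540 and 923 in WT (log2 1.64 ± 0.19, limma adjusted p = 0.000321). Tcf7, a factor of early T cells, did not pass, with 688 and 738 bases in DM and 1528 and 1194 in WT (log2 -0.31, limma adjusted p = 0.0956). DM lay above the other 6 libraries at Pax5, Bcl11b, Il2rb and Cd6. Of 177 T and NK regions 33 (18.6%) were gained and 20 (11.3%) lost, and of 109 B-lymphoid regions 13 (11.9%) were gained and 18 (16.5%) lost, against 7.02% and 23.0% over all genes. Gained T and NK regions were 56 without DM replicate 1 and 57 without WT replicate 1, and gained B-lymphoid regions 33 and 29, with 21 in the shortened lists and 28 B-lymphoid regions lost without WT replicate 2. T and NK markers summed to 2922 and 4335 bases in DM and 4068 and 3737 in WT, which overlap.

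**Figure D4:**
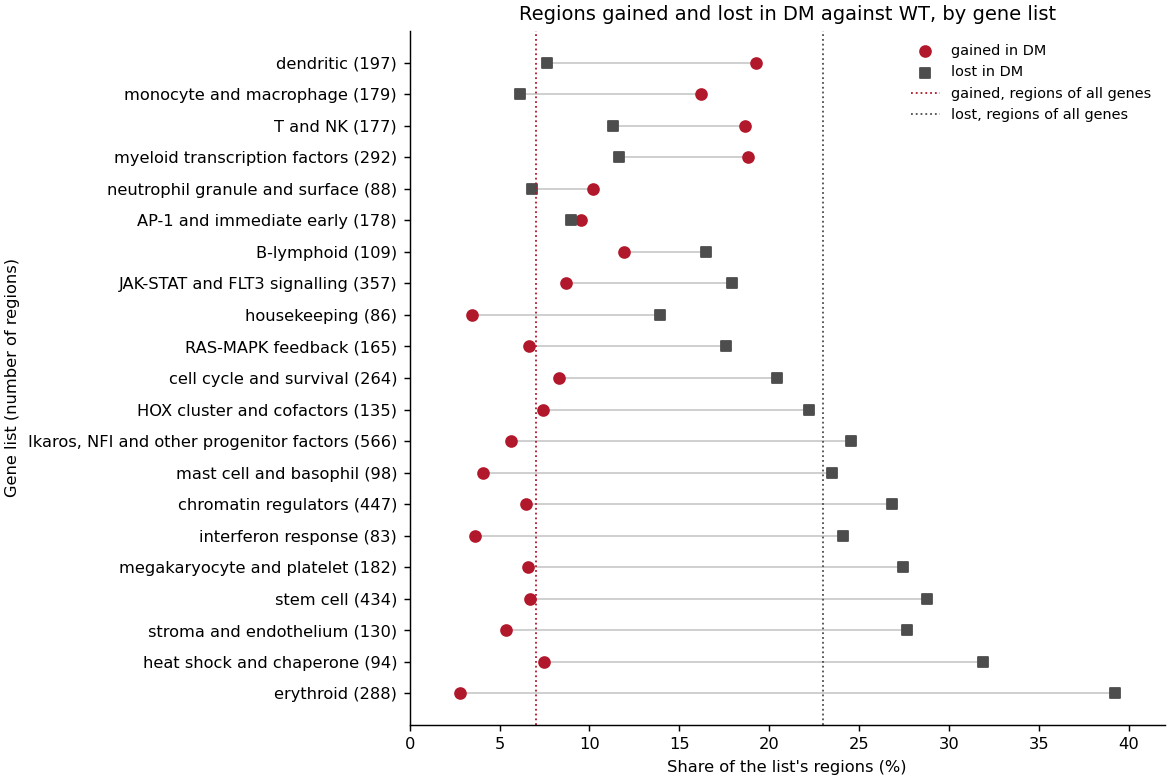
Shares of each list's regions gained (red circles) and lost (grey squares) in DM against WT, in percent, with the number of regions in parentheses and dotted lines at the shares over regions of all genes, 7.02% and 23.0%. The dendritic list has 19.3% gained and 7.61% lost at the top, and the erythroid list 2.78% gained and 39.2% lost at the bottom.

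Receptor and signalling genes downstream of FLT3 changed at single loci. Flt3 itself, the gene of the mutant receptor, was covered over 7053 and 9436 bases in DM, 5077 and 5401 in Npm1c and 4313 and 4311 in Flt3-ITD libraries, against 6008 and 3918 in WT (log2 1.16 ± 0.15, limma adjusted p = 0.000472), and gained 1 of 16 regions. In the JAK-STAT and FLT3 list 7 of 30 loci rose and 3 fell, 4 and 7 without scaling, where 16.7% of all loci rose and 24.0% fell. Socs2, a feedback inhibitor induced by STAT5, had 4605 and 5591 bases in DM and 2730 and 2207 in WT (log2 1.38 ± 0.12, limma adjusted p = 7.65e-05), with 7 of 14 regions gained. Pim1, a survival kinase and STAT5 target, had 8276 and 9060 bases in DM and 6267 and 5273 in WT (log2 1.02 ± 0.13, limma adjusted p = 0.000388). The region 17:29496118-29498640 beside it covered 2346 and 2427 bases in DM and 616 and 451 in WT. Jak1, a kinase of cytokine receptors, fell to 3217 and 3317 bases in DM, against 13480 and 11671 in WT (log2 -1.37 ± 0.12, limma adjusted p = 6.68e-05), and lost 13 of 29 regions. DM was above WT in each library at Flt3, Socs2 and Pim1 and below it at Jak1. Among 16 loci of RAS-MAPK feedback, Dusp5, a phosphatase of ERK, rose (log2 1.19, limma adjusted p = 0.00166, unscaled adjusted p = 0.0704). Rasa1, a RAS GTPase activator, fell (log2 -0.42, limma adjusted p = 0.0341), but not without DM replicate 1, DM replicate 2 or WT replicate 2 (adjusted p between 0.0632 and 0.194). Of 22 AP-1 and immediate early loci 6 rose and none fell, but 1 rose and 5 fell without scaling. Besides Nr4a1 these were led by Klf4 and Klf2, Krüppel-like factors of monocytes and resting cells, and Maff, a small MAF protein, with log2 differences of 0.77, 0.68 and 0.86 (limma adjusted p = 0.00113, 0.00601 and 0.000990). None of the 3 passed without scaling (adjusted p = 0.0873, 0.304 and 0.0565), nor Klf2 without WT replicate 2 (0.0514).

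Npm1, the other mutated gene, did not pass the test, with 3021 and 2669 bases in DM and 3673 and 3420 in WT (log2 0.15 ± 0.15, limma adjusted p = 0.451), and peak positions do not read the mutation. Mx1, an interferon-induced GTPase whose promoter drives the Cre transgene, had 1259 and 1709 bases in DM, 1653 and 1306 in Npm1c and 674 and 666 in Flt3-ITD libraries, against 784 and 511 in WT (log2 1.21 ± 0.16, limma adjusted p = 0.000523). A pair of regions within 5 kb of Mx1 were called in all 4 DM and Npm1c libraries, whose mice have Mx1-Cre, but not in Flt3-ITD or WT. Whether these peaks come from the transgene was not tested. In the interferon response list 4 of 22 loci rose and 9 fell (1 and 11 without scaling). Gbp2, a guanylate-binding protein, had 345 and 657 bases in DM and 2821 and 2350 in WT (log2 -1.43, limma adjusted p = 0.000229). Ifih1, an RNA sensor, had 1316 and 1853 in DM and 4758 and 3862 in WT (log2 -0.84, limma adjusted p = 0.00130). Ifit1, an RNA-binding antiviral protein, passed at an adjusted p of 0.0319 by limma and lost its call without DM replicate 1 and without either WT replicate (adjusted p between 0.108 and 0.201).

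The remaining lists were mixed, and those of progenitor factors, chromatin regulators and the cell cycle had counts near the 16.7% of all loci that rose and the 24.0% that fell. Hspa1a, an inducible HSP70 chaperone, had 1788 and 2671 bases in DM, 2473 and 1825 in Npm1c and 468 and 487 in Flt3-ITD libraries, against 505 and 429 in WT (log2 1.94 ± 0.18, limma adjusted p = 8.68e-05). DM and Npm1c thus stood above the others, and its near copy Hspa1b, which did not pass (limma adjusted p = 0.0614), makes the assignment of reads uncertain. Dnajb4 and Hspd1, a co-chaperone and a mitochondrial chaperone, fell (log2 -0.78 and -0.63, limma adjusted p = 0.00545 and 0.00947), in a list of 19 heat shock loci with 3 higher and 3 lower (1 and 8 without scaling). Hspd1 shares its flank with Hspe1 and had a difference of 0.040 without flanks, and its call was lost without DM replicate 2 (limma adjusted p = 0.0511) and WT replicate 2 (0.0749). Of 22 Ikaros, NFI and other progenitor factors 3 rose and 6 fell (none and 11 without scaling). Ikzf2, the Ikaros relative Helios, fell to 1638 and 2059 bases in DM, against 11598 and 10831 in WT (log2 -1.95 ± 0.12, limma adjusted p = 1.49e-05). It lost 17 of 31 regions, and Npm1c libraries had 16232 and 17697. Sox5, an SOX factor, and Nfia, a nuclear factor I gene of erythroid choice, lost 24 of 49 and 22 of 56 regions (log2 -1.25 and -1.01, limma adjusted p = 0.000441 and 0.000820). Among 32 chromatin regulators 5 rose and 8 fell (none and 20 without scaling). Tet2, a DNA demethylase lost in myeloid disease, had 4430 and 5276 bases in DM and 4142 and 2719 in WT (log2 0.92, limma adjusted p = 0.00111, unscaled adjusted p = 0.0657) and 6 of 20 regions gained. Hdac9, a class II deacetylase, rose when scaled alone (limma adjusted p = 0.0111, unscaled 0.172), and Smarcc1, a BAF subunit, fell (log2 -0.89, limma adjusted p = 0.00222). Of 20 cell cycle and survival loci 4 rose and 5 fell (none and 10 without scaling). The CDK inhibitors Cdkn2a and Cdkn1a rose (limma adjusted p = 0.00316 and 0.00621, unscaled 0.219 and 0.252) and Cdkn1c and the BH3 protein gene Bcl2l11 fell (adjusted p = 0.0121 and 0.00680). The calls of Cdkn1c and Bcl2l11 were lost without DM replicate 2 (limma adjusted p = 0.0827 and 0.0503) and without WT replicate 2 (0.0725 and 0.0514), and those of Cdkn1a (0.0514) and Hdac9 (0.0589) without WT replicate 2, that of Hdac9 also without DM replicate 2 (0.0724). Stroma and endothelium markers gave 5 higher and 3 lower of 13 (2 and 4 without scaling). Gja1, the gap junction protein connexin 43, had no peak in DM and 2612 and 2913 bases in WT (log2 -2.85 ± 0.15, limma adjusted p = 1.09e-05). Housekeeping loci gave 2 higher and 2 lower of 18, none and 9 without scaling.

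**Figure D5:**
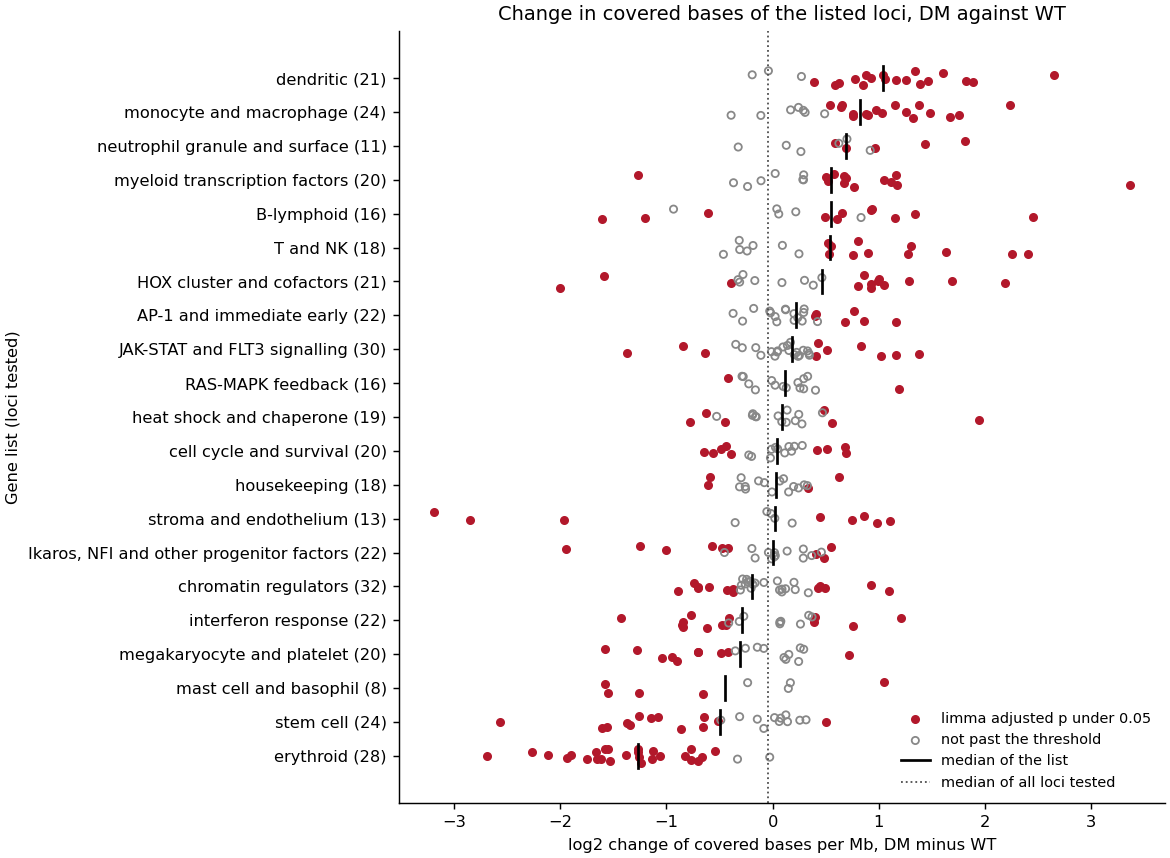
log2 difference of covered bases per Mb, DM minus WT, for each tested locus of the 21 lists; filled points passed a limma adjusted p of 0.05, open points did not, black ticks are list medians and the dotted line is the median of all loci, -0.04. Medians run between 1.03 for the dendritic and -1.27 for the erythroid list.

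Over all genes the largest increases after Irf8 (log2 3.36) were at Klk15 (2.96), Arnt2 (2.83), Egfem1 (2.80), Cdh13 (2.79), Dmrt1 (2.74), Malrd1 (2.68), Cd74 (2.64), Ctnnd2 (2.49), Zfp366 (2.48), Pax5 (2.45) and Ace (2.44), all with a limma adjusted p of at most 0.000801. Klk15, a kallikrein-type protease, had 1919 and 2430 bases in DM, none in Npm1c or WT, and 243 and 489 in Flt3-ITD. Zfp366, which encodes the dendritic cell factor DC-SCRIPT, had 1172 and 1816 bases in DM, 0 and 208 in Flt3-ITD and none in Npm1c or WT, and gained 6 of 11 regions. Arnt2, a partner of PAS-domain factors, had 4260 and 3345 bases in DM and 360 and 354 in WT. Cdh13, a membrane-anchored cadherin, had 3682 and 3651 bases in DM and 461 and 276 in WT. In all 4 of these the DM libraries lay above the other 6. Klk15, Egfem1, Cdh13, Dmrt1, Malrd1 and Zfp366, like F13a1 and Il2rb above, reached the filter's mean of 10 per Mb only through their DM libraries. Their entry into the test thus depended on the values tested, and their p-values are no independent support. The largest decreases included Phyhip (-3.53), Epha4 (-3.29), Gpc4 (-3.27), Vangl1 (-3.25), Piezo2 (-3.24), Sh3tc2 (-3.22), Myl9 (-3.19), Slc25a21 (-3.18), Thsd7b (-3.16), Zfp385b (-3.12) and Ndst3 (-3.05), with a limma adjusted p of at most 0.00127. Of these 11, 9 had no peak in either DM library. Phyhip had 0 bases in DM, 4253 and 4602 in Npm1c and 2632 and 4271 in Flt3-ITD libraries, against 5240 and 4221 in WT. Epha4, an ephrin receptor, and Vangl1, a planar polarity protein, had no peak in DM and 4312 and 3582, and 3646 and 3987, bases in WT. The loci named here as highest and lowest kept their direction and their call without scaling.

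Counted by regions, most gains after Irf8 (22 of 47) fell at Zfp469 (13 of 32), Cradd (10 of 39), an adapter of cell death signalling, and Prex1 (10 of 57), which activates Rac. Another 6 genes had 9 each, Arnt2 (of 14), Macroh2a1 (of 16), Ephb2 (of 22), Camk1d (of 32), Lpp (of 36) and Nav2 (of 60). Macroh2a1, a histone variant gene, had peaks in 14 and 15 regions in DM and 6 and 5 in WT. Most losses fell at Pde4d (29 of 83), a cAMP phosphodiesterase, Gse1 (26 of 98), St6galnac3 (25 of 58), Sox5 (24 of 49) and Zeb2 (24 of 42). Besides the cluster at Irf8, 8 gained regions of 9 stood within 20 kb at Tbc1d4, a regulator of glucose transport, and 9 lost ones each at Ntn4 (of 10), Pan3 (of 11) and Nt5c3 (of 10). By width the foremost gains after that of Cd74 were 5:35165404-35166765 for which Lrpap1 is the nearest gene, with 1332 and 1362 bases in DM and 1018 and 801 in Flt3-ITD, 17:34968249-34970039 at Hspa1a, 9:107333593-107334792 in Hemk1 and 17:27374974-27376101, nearest to Grm4. The foremost losses were 4:145032702-145035907 in Vps13d, with no peak in DM and 3107 and 3154 bases in WT, and regions at or nearest to Slc28a3, Usp15, Gse1 and Gja1, each of which had a peak in all 4 single-mutant libraries. Regions called in all 4 libraries changed in width too, with both DM libraries wider than both WT libraries in 5154 of 32654 (15.8%) and narrower in 18329 (56.1%). Median covered widths were 545 and 576 bp in DM and 728 and 589 bp in WT. Lhfpl2 held one that narrowed to 689 and 362 bases in DM, against 4784 and 4489 in WT, and H2-Aa one that widened to 1499 and 1707 in DM, against 365 and 329 in WT.

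Of the windows of protein-coding genes 91 were gained, at 89 genes, and 559 lost, at 520 genes. Over all 183 gained windows the PU.1 and ETS motif GAGGAAG was found in 25.7%, against 10.4% of the 937 lost, 14.0% of the 12487 windows called in all 4 libraries and 13.4% of all windows. RUNX letters (TGTGGTT) were in 13.1% of gained, 5.02% of lost and 5.29% of all windows, and MEIS letters (TGACAG) in 24.0% of gained, 19.6% of lost and 18.9% of all windows, and in 21.0% of those called in none of the 4 libraries. The GATA motif AGATAA was in 8.20% of gained, 20.7% of lost and 11.2% of all windows, and in 6 of the 11 lost windows of erythroid genes. Windows called in all 4 libraries had it in 5.21% and those called in none in 15.2%, nearer to the lost ones. AP-1 letters (TGACTCA) were in 6.56% of gained, 6.40% of lost and 5.22% of all windows and C/EBP letters (TTGCNNAA) in 10.4%, 11.7% and 10.9%. In the same order the shares were 7.10%, 6.51% and 7.91% for HSF letters (GAANNTTC) and 7.65%, 10.2% and 10.7% for the CTCF core (AGGGGGC). For the IRF motif they were 4.92%, 2.78% and 3.46%, and for STAT letters (TTCNNNGAA) 10.4%, 8.43% and 8.34%. Motifs can overlap each other in a window, as GAANNTTC and TTCNNNGAA can, and these shares carry no test. Gained and lost windows were alike in composition, with a median GC content of 53.7% and 53.0% and 6 and 7 CpG sites, while windows called in all 4 libraries had 62.3% GC and 22 CpG sites. Besides those printed, gained windows belonged to C1qb (a complement chain), Spib (an ETS factor of plasmacytoid dendritic and B cells), Cd209a (a dendritic lectin), Lck and Cd8a (T-cell kinase and co-receptor). None of these held a GAGGAAG match. Lost ones belonged to Klf1, Sox6, Tal1, Rhag, Rhd, Ermap, Gp1ba, Gp5, Gp9 and Tubb1 among others, each named after its call was known. The Lck locus as a whole went the other way from its window, with 1552 and 1953 bases in DM and 2975 and 2699 in WT. Tal1 also had a window called in all 4 libraries.

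To ask where DM differed from the sum of the single-mutant differences, the contrast of DM minus Npm1c with Flt3-ITD minus WT was tested in the same fit. Of 14741 loci 3723 (25.3%) passed a limma adjusted p of 0.05, 1715 with a positive and 2008 with a negative sign. Without scaling 1595 passed, 1294 positive and 301 negative. Irf8 was among the positive ones (interaction log2 3.03 ± 0.37, limma adjusted p = 0.00137), as were Il2rb (2.66, 0.00104), Bcl11b (2.22, adjusted p = 0.00940), Ciita (1.77, 0.00463), H2-Aa (1.54, 0.00237), Cd74 (1.32, 0.00249) and Socs2 (0.93, 0.00623). Il2rb entered the test only through its DM libraries, so its interaction is no independent support. Negative ones included Kel (-2.65, limma adjusted p = 0.00292), Car2 (-1.96, 0.00149), Epb42 (-1.82, 0.000672) and Tubb1 (-1.86, 0.000883). Hoxa9 had an interaction of -0.63 ± 0.19 (limma adjusted p = 0.0422). Hoxa10 (-0.49, adjusted p = 0.0502), Kit (-0.56, 0.112), Hlf (-0.09, 0.766), Tek (-0.79, 0.0845), Flt3 (0.43, 0.153), Hspa1a (-0.09, 0.805) and Mx1 (-0.24, 0.450) did not pass. At Hlf and Tek, DM and Flt3-ITD libraries had similar low values, and at Hspa1a and Mx1, DM and Npm1c libraries similar high values. All of these contrasts share the same WT libraries. Mx1-Cre is named for DM and Npm1c mice but not for Flt3-ITD and WT mice. An interaction with the Npm1c allele thus cannot be told apart from one with Mx1-Cre.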

How the data were processed

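ATAC-seq was deposited as 1 peak list per library, made with Bowtie2, MACS2 and mm10, per the submitters' processing notes. Versions, call thresholds, read depth, duplicate removal and any Tn5 shift are not given in the sources used here. Coordinates deposited by the authors give chromosome, start and end, with no score or signal. The 2 neutrophil samples of the series were not analysed here.

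Peaks were merged into regions with Python 3.11.15 and pandas 2.3.3, and each region was assigned to the nearest RefSeq gene within 100 kb. Covered bases per gene body with 5 kb flanks were divided by each library's covered Mb, loci with a mean of at least 10 per Mb were kept, and log2(value + 10) was tested with limma 3.58.1 in R 4.3.3 over 8 libraries in 4 groups, two-sided, with Benjamini-Hochberg adjustment over all loci. The filter used the mean over all 8 libraries, so a locus can enter the test through the group where it is high. Fold changes on this scale understate those of low loci. In data simulated for the comparison of DM with WT over 14741 loci, 85 of 100 loci changed by log2 1 and 96 of 100 changed by log2 2 were called, with 8 false calls. The simulated noise was independent between loci, with no shift shared by a whole library and all other loci unchanged. The 8 false calls are thus no error rate for the real lists.

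The members and the 21 gene lists (468 genes, 467 found) were chosen with earlier results of these data known, so no list is independent support of its direction. Named loci were the 12 highest and 12 lowest passing loci whose groups did not overlap, up to 4 per list, the 5 genes with most gained and with most lost regions (ties kept), the 5 widest regions and the 5 densest 20 kb windows of each class, and 10 interactions. Some loci that these rules chose are not reported here. Other genes were named after their values had been seen. Promoter windows and motifs were added once RefSeq's promoter table was at hand, and motifs in other regions were not analysed. Figures used matplotlib 3.10.9.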

Additional observations from a re-analysis of the deposited data

Results flagged for a closer look

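At 9 loci the Flt3-ITD difference was not the same with the Npm1c allele and Mx1-Cre as without them. The measure was the interaction of DM minus Npm1c with Flt3-ITD minus WT (limma, among the lowest adjusted p values, between 6.41e-05 and 0.000404). Npm1c and Mx1-Cre go together in these mice and cannot be told apart. The interaction was negative at Phyhip (-3.78), Hbb-bs (-2.73) and Asb17 (-2.44). Both DM libraries had no peak at these 3 loci. Hbb-bs, an adult beta globin, had 2619 and 2618 bases in Npm1c and 265 and 355 in Flt3-ITD libraries, against 808 and 456 in WT. Asb17 had 2961 and 2625 in Npm1c and 637 and 901 in Flt3-ITD libraries, against 2103 and 1883 in WT.

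A positive interaction was found at Cdh13 (3.20), Dscaml1 (3.09), H2-Oa (2.75), Ovol2 (2.35), Ngfr (2.35) and Slc17a1 (2.19). At Cdh13, which passed the filter only through its DM libraries, DM exceeded the other 6 libraries. In bases not scaled DM overlapped or lay below WT at Dscaml1, H2-Oa, Ovol2 and Slc17a1. Dscaml1, an adhesion protein, had 2542 and 2911 bases in DM, 283 and 329 in Npm1c and 1171 and 1654 in Flt3-ITD libraries, against 4450 and 3315 in WT. H2-Oa, a chain of the class II chaperone DO, had 2057 and 2843 bases in DM, none in Npm1c and 1247 and 1932 in Flt3-ITD libraries, against 2413 and 1543 in WT. Ovol2, a zinc finger factor, had 1299 and 1411 in DM, 1486 and 1655 in Npm1c, none in Flt3-ITD, and 2101 and 1273 in WT. Slc17a1, a phosphate transporter, had 801 and 923 in DM, 367 and 310 in Npm1c and 276 and 298 in Flt3-ITD libraries, against 1974 and 1342 in WT. Ngfr, the neurotrophin receptor p75, had 1671 and 2265 bases in DM, none in Npm1c and 822 and 1025 in Flt3-ITD libraries, against 1037 and 899 in WT, so DM lay above WT there.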

How the results depend on the processing

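Gained regions numbered 12487 with lists of equal number and 20659 with lists of equal covered length, against 7179, and lost regions numbered 3827 with equal covered length, against 22384. Leaving out 1 library gave between 7228 and 16438 gained and between 23936 and 32188 lost regions. Without scaling 509 loci were higher, 7716 lower and 1595 had an interaction. Leaving out 1 library gave between 1357 and 2063 higher loci, between 2096 and 3260 lower loci and between 1756 and 4059 interactions. The cause of these shifts was not tested, except that shortened lists hold fewer narrow peaks by construction. Of 61 alternative counts over regions or loci 48 stayed within 1.5 times the first value, and of 1405 alternative values for named loci 1318 kept direction and call, 79 lost the call and 8 changed sign. Of 129 alternative values for the 10 strongest interactions 127 kept direction and call, and those of Ngfr and Slc17a1 with lists of equal number did not pass. The sign changed at Npm1 without scaling (-0.29), with 20 kb flanks (-0.12) and by leaving out 1 library (between -0.0098 and 0.31), at Ezh1 with 20 kb flanks (0.20), at Hspd1 without flanks (0.040), at Hspa5 with 20 kb flanks (-0.032), and at Rps18 without scaling (-0.097) and without flanks (-0.099). The count of gained regions in the myeloid factor list without Irf8 (33) was chosen after seeing the data. Peak positions give no depth, so a missing peak is not shown to be closed chromatin.

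Samples with the same replicate number did not pair, with correlations of their deviations between -0.17 and 0.09, and a fit with the replicate block gave 2335 higher and 3399 lower loci and 3450 interactions.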
